A study of Mus musculus with 68 samples.

Results

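The genes of the mitochondrial respiratory chain and of ATP synthase were followed in 68 single cells of the embryonic mouse cerebral wall. The members were all genes whose platform symbol began with Ndufa, Ndufb, Ndufc, Ndufs or Ndufv and a digit, with Uqcr, with Cox4 to Cox8, with Sdha to Sdhd, or with Atp5. This rule, which used no measured value, gave 85 genes and 170 probe sets of the 18194 genes and 45101 probe sets on the array. By name 79 of the 85 encode subunits. The other 6 are the assembly factors of succinate dehydrogenase Sdhaf1 to Sdhaf4, the supercomplex factor Cox7a2l, and Ndufa4l2, a relative of the complex IV subunit Ndufa4. A total of 80 members, with 146 probe sets, reached the level of an RNA spiked at 20 copies per cell in at least 1 cell. The 5 that reached it in no cell were Cox4i2, Cox6a2, Cox7b2, Cox8b and Ndufa4l2.

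All cells came from the dorso-lateral cerebral wall of CD1 mice, were released with trypsin, and were picked by hand with a glass capillary, at random except that EGFP-positive cells were sought after electroporation. The 30 E11 cells and 28 E16 cells were a mixture of cells without genetic change, and the E16 cells came from small fragments of the ventricular and subventricular zones. The 3 E12 APs were likewise unmanipulated apical progenitors. The 3 neurosphere APs were E11 cells kept for 3 days in suspension with FGF2, EGF, N2, N-acetylcysteine and B27 without vitamin A. The 4 NICD/p18 APs were taken at E14 from walls electroporated in utero at E11, 3 days earlier, with pCAG-NICD and pEF-p18. These plasmids drive the Notch1 intracellular domain from the CAG promoter and the Cdk inhibitor p18 from the EF promoter, in whichever cells took them up. The study chose cells for the arrays by quantitative PCR. The E12 APs were taken for Ki67, Ttyh1, Sox2 and Pax6 without Tbr2. The NICD/p18 APs were identified by EGFP and Ttyh1 without Tbr2, and the absence of Ki67 was then checked. The paper describes its neurosphere APs as positive for Ki67, Sox2, Pax6 and Ttyh1 and negative for Tbr2. These genes are therefore not findings here. Each array held 1 cell, and the labels tied no cell to an embryo, litter or culture. Every group was therefore treated as 1 sample, and differences are given as descriptions with the spread between cells and without a test.

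The respiratory chain passes electrons from NADH through complex I, or from succinate through complex II, to complex III, cytochrome c and complex IV, which reduces oxygen. Complexes I, III and IV pump protons across the inner mitochondrial membrane, and ATP synthase uses the resulting gradient to make ATP. All members are nuclear genes whose products are imported into the organelle. The few subunits encoded by mitochondrial DNA are outside the rule. The transcription factors NRF1, the ETS-family factor GABP and YY1 are known regulators of this gene set. Progenitors of the early cortex are generally regarded as relying much on glycolysis, with respiration gaining weight during neuronal differentiation.

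Defining markers of APs were present in most but not all cells that the labels named APs. Sox2 was at or above the 20-copy level, defined below, in 3 of 3 E12, 3 of 3 neurosphere and 3 of 4 NICD/p18 APs. Ttyh1 was at it in 3, 2 and 4 of them. Neurosphere cell W6D had Pax6 at 4.11 and Ttyh1 at 7.97, both under the level. Of 17 AP markers, 11 to 15 reached the level in each E12 and each NICD/p18 AP. In neurosphere APs 6 to 13 did. One E12 AP, cell 103L, had Eomes, the gene for the IP marker Tbr2, at 11.75, whereas the other E12 APs had 1.27 and 2.52, so values without it are given beside the comparisons that use it. The E11 and E16 labels give no cell type, so the cells of each stage were clustered on markers of apical progenitors (AP), intermediate progenitors (IP) and neurons, with no member gene taking part. This gave 23 AP-like and 2 IP-like cells at E11 and 17 AP-like, 8 IP-like and 3 neuron-like cells at E16. A further 4 E11 cells held markers of both IPs and neurons and stayed unnamed. The rule for this set IP markers against neuron markers only. The E16 IP-like class had 7 of 14 IP markers with a mean at the 20-copy level, but also 7 of 17 AP markers. Pax6 was at the level in 7 of its 8 cells. One E11 cell, 31i, which the study set aside for low quality, was left out. The 10 arrays of the E12, neurosphere and NICD/p18 APs were deposited with a trimmed mean of 500.0, whereas the other 58 ranged from 47.5 to 298, so comparisons across these 2 sets carry a difference in processing. Signals below were quantile normalized and are given as log2 values. The 20-copy level was 9.72 on that scale, and the number of genes at or above it per cell was 2792 to 2813 in E12 APs, 2732 to 2811 in neurosphere APs and 2656 to 2792 in NICD/p18 APs.

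The 5 promoters printed here illustrate the sequences upstream of these genes. They belong to members that are described below, and were chosen to show stretches with an NRF1 motif, with an ETS motif and with neither. Each is the 250 bases before the transcription start in RefSeq on GRCm38.p6, read 5′ to 3′, and capitals mark the motif. The motifs searched on both strands were GCGCANGCG for NRF1, CCGGAAGT for ETS and AAGATGGCG for YY1.
Cox6a1 chr5:115348959-115349208, minus strand: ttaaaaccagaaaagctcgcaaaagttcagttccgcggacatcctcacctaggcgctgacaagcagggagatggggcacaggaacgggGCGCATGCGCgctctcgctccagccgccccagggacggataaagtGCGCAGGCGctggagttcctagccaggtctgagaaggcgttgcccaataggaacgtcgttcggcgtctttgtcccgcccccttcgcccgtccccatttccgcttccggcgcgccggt
Sdhd chr9:50603850-50604099, minus strand: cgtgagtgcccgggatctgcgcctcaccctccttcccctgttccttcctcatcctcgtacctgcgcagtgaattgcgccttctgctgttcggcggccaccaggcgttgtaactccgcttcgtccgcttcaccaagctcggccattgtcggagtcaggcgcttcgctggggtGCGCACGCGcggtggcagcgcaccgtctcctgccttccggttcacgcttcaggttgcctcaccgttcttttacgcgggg
Ndufs5 chr4:123718187-123718436, minus strand: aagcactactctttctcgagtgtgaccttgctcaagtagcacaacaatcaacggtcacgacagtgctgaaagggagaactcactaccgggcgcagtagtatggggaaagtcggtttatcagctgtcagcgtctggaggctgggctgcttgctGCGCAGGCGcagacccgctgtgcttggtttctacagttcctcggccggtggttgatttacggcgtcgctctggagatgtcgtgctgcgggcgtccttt
Uqcr11 chr10:80406822-80407071, minus strand: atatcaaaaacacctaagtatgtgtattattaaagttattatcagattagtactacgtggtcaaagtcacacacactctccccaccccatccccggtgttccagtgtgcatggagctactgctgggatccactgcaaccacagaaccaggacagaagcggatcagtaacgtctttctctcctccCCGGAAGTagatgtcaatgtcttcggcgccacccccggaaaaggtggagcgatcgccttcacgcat
Ndufv2 chr17:66101560-66101809, minus strand: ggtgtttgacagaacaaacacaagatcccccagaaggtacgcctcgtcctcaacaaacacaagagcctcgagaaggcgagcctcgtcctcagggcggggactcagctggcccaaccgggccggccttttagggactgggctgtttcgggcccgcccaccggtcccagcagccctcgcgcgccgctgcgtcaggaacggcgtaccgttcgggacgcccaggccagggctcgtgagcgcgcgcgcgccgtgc
Of the 85 members 70 had such a promoter window, searched from 250 bases before to 50 after the start. The NRF1 motif was present in 20 of the 70 (28.6%), against 1901 of 27025 genes with a window (7.03%). The ETS motif was present in 5 (7.14%) against 4.31%, and the YY1 motif in 6 (8.57%) against 1.64%. The promoters were not matched for base composition. Cox6a1 held the NRF1 motif at 2 places, one of which reads on both strands. Sdhd and Ndufs5 held it once. Uqcr11 held the ETS motif in the printed stretch. Its NRF1 motif was found only when the 50 bases after the start were included. Ndufv2 held none of the 3 motifs. These are matches of letters in a window and not measured binding sites.

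The members were detected in far more cells than most genes, and unevenly between complexes. At or above the 20-copy level in all 68 cells were 12 of the 80 members (15%), against 120 of 10789 genes (1.11%). In 60 or more cells it was 44 members (55.0%) against 4.45% of genes, and in fewer than 20 cells 10 members (12.5%) against 66.4%. The 12 comprised the complex IV genes Cox5b, Cox6a1, Cox6b1, Cox6c and Cox8a, the ATP synthase genes Atp5b, Atp5g3, Atp5h, Atp5j, Atp5j2 and Atp5pb, and Uqcrh of complex III. Atp5b encodes the catalytic beta subunit, and Atp5g3 the proton-carrying c subunit of the membrane ring. No complex I gene was detected in all cells, and 12 of the 33 reached 60 cells or more. The share detected in every cell was lower for other mitochondrial genes, at 0 of 76 genes of the mitochondrial ribosome and 0 of 35 assembly factors, and higher for the cytosolic ribosome, at 29 of 44. Glycolysis had 2 of 15. Detection on an array depends on each probe set's affinity, so these counts are not an order of RNA levels.

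Subunits with tissue variants are given next. Detection of one variant cannot be set against that of another, since their probe sets differ. Cox4i1 was at or above the 20-copy level in 66 cells, Cox6a1 in 68, Cox6b1 in 68, Cox7a2 in 67 and Cox8a in 68. The next genes are variants best known from muscle, lung or testis. Cox6b2 reached the level in 4 cells, Cox7a1 in 2 and Cox8c in 1, and Cox4i2, Cox6a2, Cox7b2 and Cox8b in 0. The 3 genes for the c subunit of ATP synthase, which encode the same mature protein, were all detected widely, with Atp5g1 in 62 cells, Atp5g2 in 67 and Atp5g3 in 68. Ndufa4 was detected in 66 cells, and Cox7a2l, which promotes joining of complexes III and IV, also in 66. In complex II, the flavoprotein Sdha reached the level in 43 cells, the iron-sulfur subunit Sdhb in 65, and the membrane anchors Sdhc in 63 and Sdhd in 31. Ndufs1, the largest iron-sulfur subunit of complex I, reached it in 38. The probe sets of the ordinary subunits Ndufb4, Ndufb1 and Cox7c were at the level in 1, 3 and 6 cells.

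**Figure D1:**
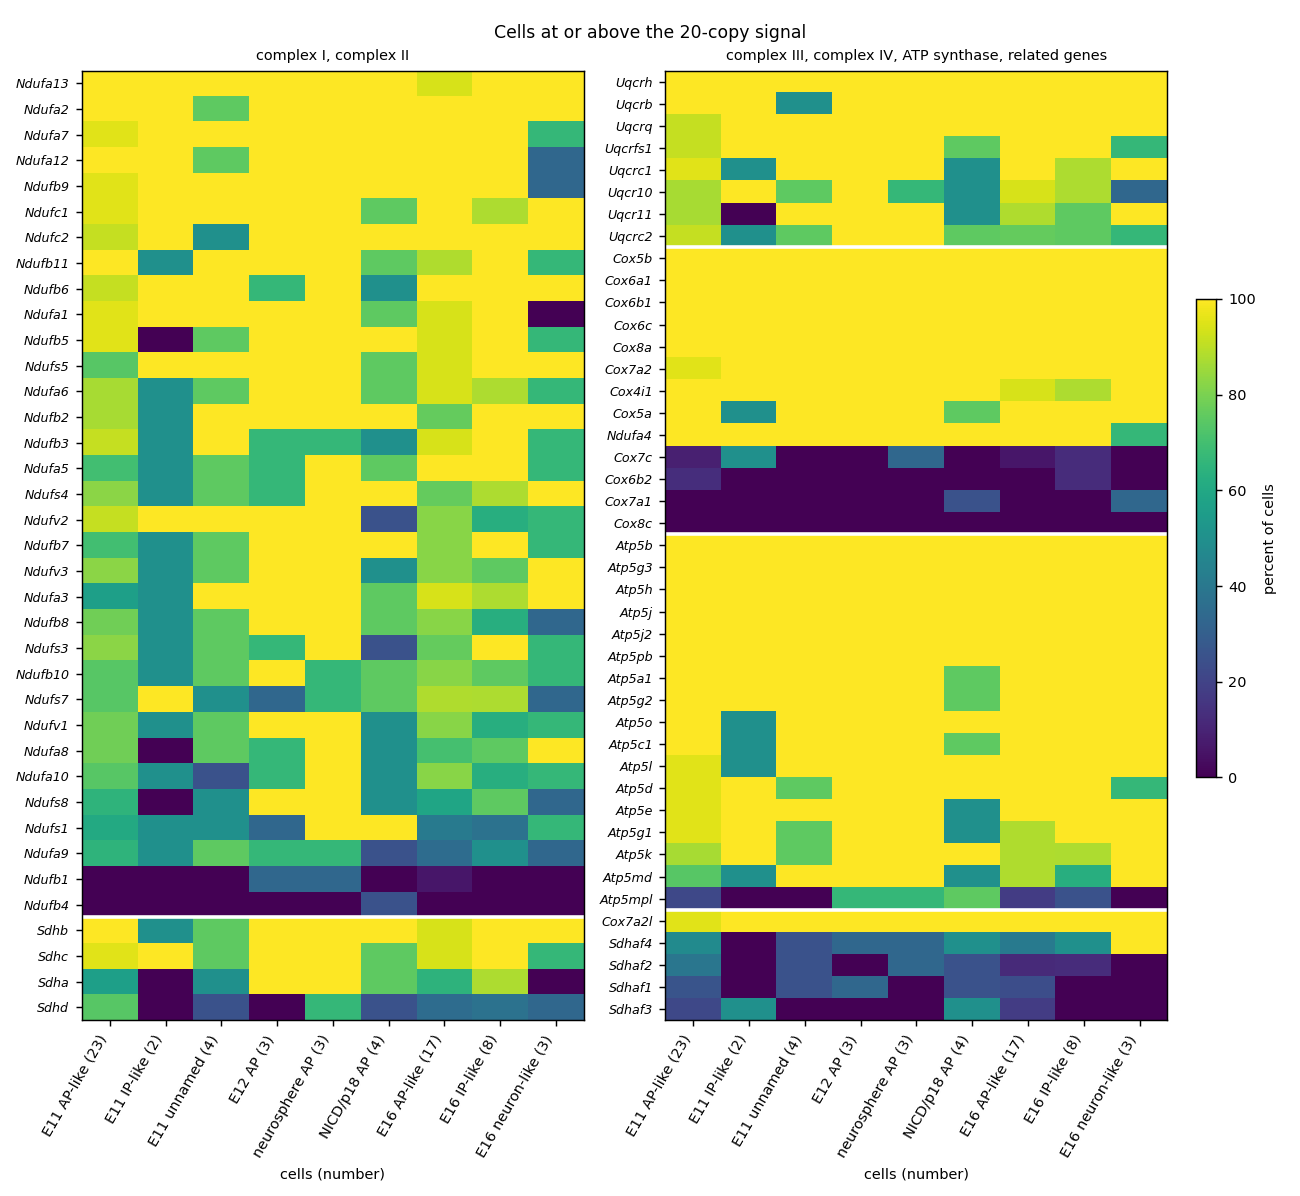
Percent of cells of each group at or above the 20-copy level, for each of the 80 respiratory chain genes that reached it in any cell. Rows are genes in order of complex, columns are groups with the number of cells in brackets, and color gives the percent of cells. Cox6a1 and Cox6b1 were at the level in all 68 cells, and Cox7a1 in 2.

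Levels varied between cells of the same class by amounts that differed between complexes. Among E11 AP-like cells the median SD of log2 signal over members was 1.08, against 2.52 over all genes past the filter and 0.16 over cytosolic ribosomal genes. Among genes with a mean above the 20-copy level it was 0.89 for members and 1.33 for all. Over all its members it was 0.46 for complex IV, 0.54 for ATP synthase, 0.91 for complex III, 0.98 for complex II and 1.86 for complex I. In E16 AP-like cells the corresponding values were 0.81, 0.73, 0.76, 1.97 and 1.71. Among genes with a mean above the 20-copy level, complex II at E16 came to 0.95, from 2 genes, and complex I to 1.58. In E11 AP-like cells the per-cell median signal averaged 11.3 for complex I and 12.43 for complex IV. The part of signal level in these SDs was not tested. Among members detected in every cell, correlations across cells were low after quantile normalization. That step takes out any shift shared by all genes of a cell, and no correlation of other genes is given. Whether members vary together was therefore not tested. The median Pearson correlation over the 300 pairs of 25 such members across the 23 E11 AP-like cells was 0.01, and over the 595 pairs of 35 members across the 17 E16 AP-like cells it was 0.04. Probe sets of one gene on the same arrays correlated at a median of 0.95 over 19 pairs and 0.97 over 31 pairs. All points share the array and its amplified RNA, and these correlations are descriptions across cells of 1 group.

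The median signal over members was nevertheless similar in most cells. It lay between 11.4 and 11.99 in the 23 E11 AP-like cells, with a mean of 11.66 ± 0.161 (SD between cells, n = 23), and averaged 11.76 ± 0.213 in the 17 E16 AP-like cells. The 3 E12 APs had 12.03, 12.05 and 12.07, and the 3 neurosphere APs 12.39, 12.28 and 12.26. The 4 NICD/p18 APs were spread more widely, at 11.12 in M5A, 12.05 in M5K, 11.46 in M6C and 10.56 in M6H. The E11 IP-like cell 41G had the lowest median of the 68 cells, at 10.27, and the other E11 IP-like cell, 42M, had 11.34.

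**Figure D2:**
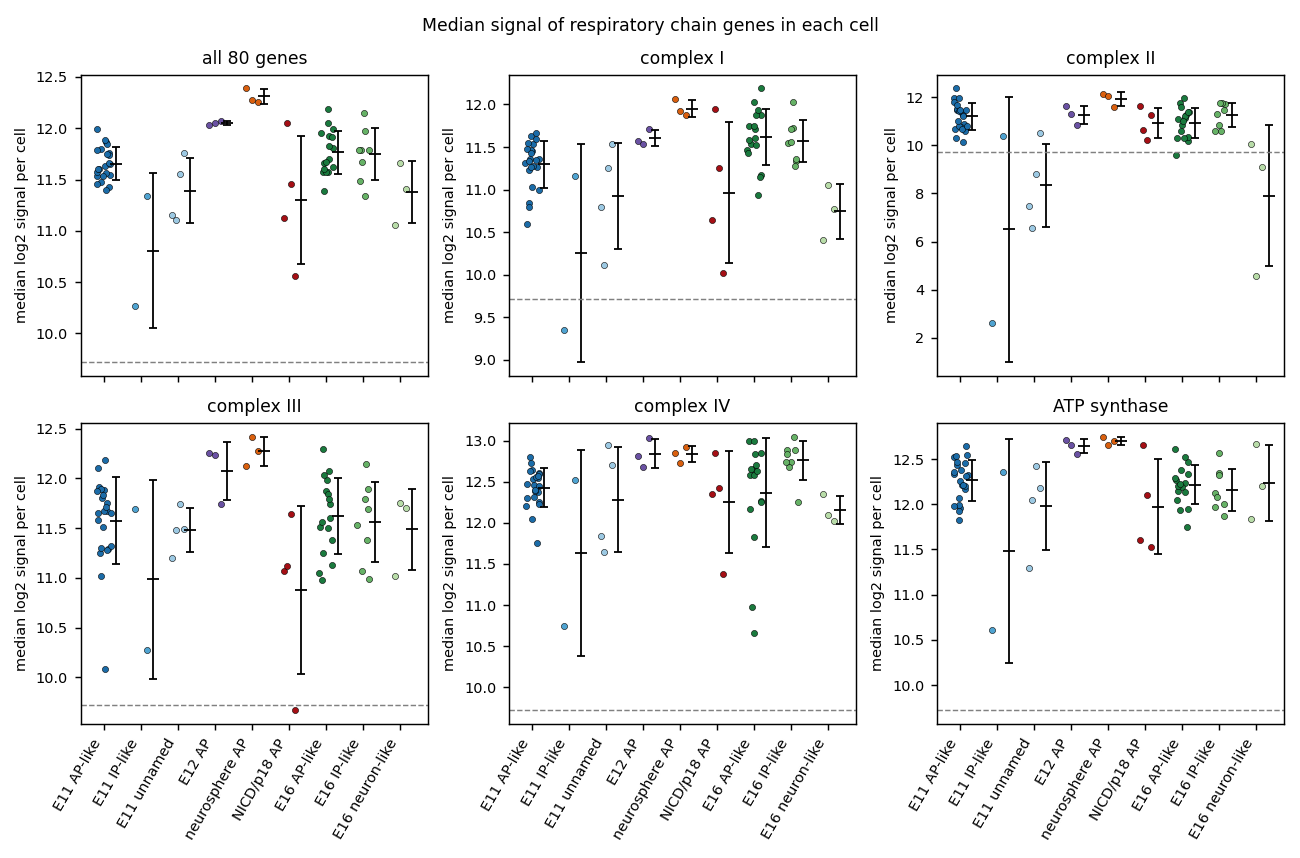
Median log2 signal per cell over all 80 detected respiratory chain genes and over the subunits of each complex. Each point is 1 cell, grouped on the horizontal axis by class, bars give the mean and SD between cells, and the dashed line marks the 20-copy level. E12 and neurosphere APs sit between 12.03 and 12.39 over all genes, whereas NICD/p18 APs range from 10.56 to 12.05.

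The comparison of E11 with E16 asked how progenitors at the start of neurogenesis differed from those near its end. Among AP-like cells the respiratory chain as a whole was level, with a median difference of 0.05 over the 80 members, and the differences fell on a few subunits of complexes I and II. Higher at E16 by log2 1 or more were 6 members, all accessory or core subunits of complex I, and lower were 2. Of all genes past the filter 2.22% were higher and 4.33% lower. Most of those genes were undetected in both groups, so the closer background is the 1692 genes whose higher mean reached the 20-copy level, of which 14.2% were higher and 27.6% lower. Of members 67 met this condition, and 8.96% of them were higher and 2.99% lower. Of these 67, no member of complex III, complex IV or ATP synthase passed log2 1 in either direction.

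The largest single difference was in Sdhd, which anchors complex II in the membrane. In E11 AP-like cells it ranged from 9.17 to 11.71 with a median of 10.49, and 17 of 23 cells were at the 20-copy level. In E16 AP-like cells it ranged from 1.26 to 11.56 with a median of 8.37, and 6 of 17 cells were at the level. The means were 10.48 ± 0.82 (SD, n = 23) and 7.25 ± 3.72 (SD, n = 17), a difference of -3.23, and the gene's other probe set gave -2.44, from values at the 20-copy level in 1 of 68 cells. The ranges overlapped, since E16 cells included both high values and values near the floor of the array.

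Ndufs5, an accessory subunit of the membrane arm of complex I, showed the opposite pattern. It ranged from 0.8 to 12.85 with a median of 10.69 in E11 AP-like cells and from 9.27 to 12.91 with a median of 12.03 in E16 AP-like cells. Cells at the 20-copy level were 17 of 23 and 16 of 17, and the difference of the means was 1.85. Ndufa3 was at the level in 13 of 23 and 16 of 17 cells and differed by 1.38, although its medians, 10.54 and 10.48, were alike, so the difference lay in the low E11 cells. Ndufa5, in the peripheral arm, differed by 1.35, Ndufs7, which carries the last iron-sulfur cluster before ubiquinone, by 1.16, Ndufc2 by 1.10 and Ndufb10 by 1.09. Ndufv2, an iron-sulfur subunit of the NADH-oxidizing module, was lower by 1.19 in the mean but not in the median, which was 11.84 at E11 and 11.75 at E16. A few E16 cells with values down to 1.84 carried that difference.

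All 28 E16 and 29 E11 cells, whatever their class, were also compared. The median difference over members was 0.19, against -0.06 over all genes. Higher were 4 members, Ndufc2 by 1.65, Ndufs5 by 1.52, Ndufa5 by 1.23 and Ndufa3 by 1.11, against 1.51% of all genes, and lower was 1, Ndufv2 by 1.20, against 2.43%. Sdhd differed by -2.24 but was not counted, since its mean was under the 20-copy level in both sets, and Ndufs7 and Ndufb10 were each higher by 0.86. Of the 1406 genes whose higher mean reached the 20-copy level, 11.6% were higher and 18.6% lower. Of the 65 members meeting this condition 6.15% were higher and 1.54% lower. When values below the 20-copy level were set to that level, Ndufc2 remained past log2 1, at 1.14, and Ndufs5 came to 0.92.

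**Figure D3:**
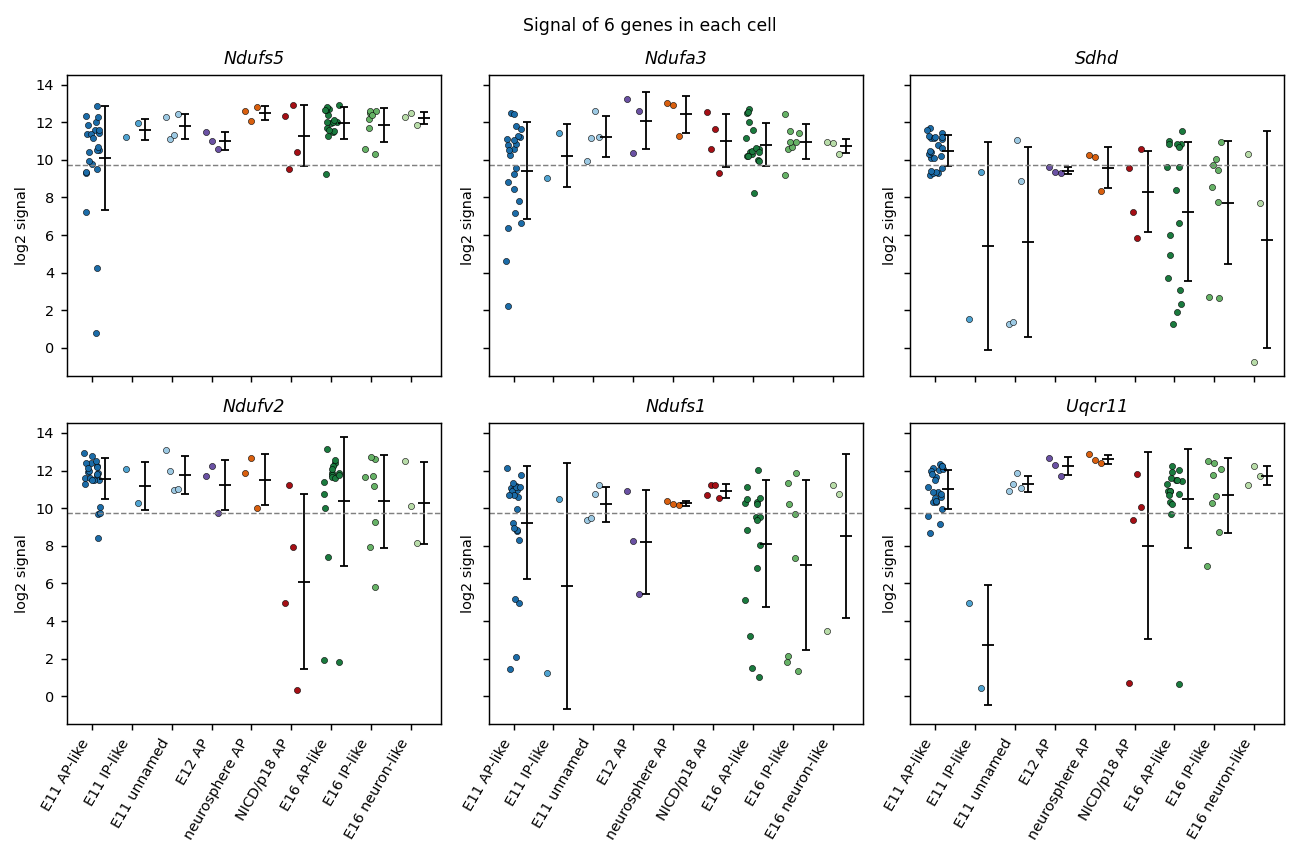
Log2 signal of 6 respiratory chain genes in each cell, by class. Each point is 1 cell, bars give the mean and SD between cells, and the dashed line marks the 20-copy level of 9.72. Sdhd is below the line in 11 of 17 E16 AP-like cells, and Ndufs5 is above it in 16 of them.

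Neighboring pathways were compared between E11 and E16 AP-like cells in the same way. Glycolysis had a median difference of -0.88, with Aldoa lower by 2.59, Ldha by 1.81, Pkm by 1.48 and Tpi1 by 1.23. Aldoc, the aldolase form of brain and astroglia, was higher by 8.18 and was at the 20-copy level in 1 of 23 E11 and 17 of 17 E16 AP-like cells. The medians were -0.80 for mitochondrial import, -0.49 for the mitochondrial ribosome, -0.47 for the tricarboxylic acid cycle and -0.18 for the cytosolic ribosome. These lists include undetected genes. Among genes whose higher mean reached the 20-copy level the median was -0.33 over all genes and 0.06 over members. It was -0.87 for glycolysis, -0.83 for import, -0.37 for the tricarboxylic acid cycle and -0.06 for the mitochondrial ribosome. Among regulators, Yy1 was lower by 2.42 and was detected in 16 of 23 and 7 of 17 cells, and Gabpa was higher by 1.44 and was detected in 16 of 23 and 15 of 17. Nrf1 was below the 20-copy level in all 23 E11 AP-like cells, and Ppargc1a was at it in 1 of 23 and 1 of 17.

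E12 APs had higher member signals than E11 cells, but here processing and condition cannot be told apart. The median difference from the 29 E11 cells was 0.57 over members and 0.13 over all genes, most of which were undetected. Among genes whose higher mean reached the 20-copy level the order was turned, with 0.68 for members and 0.88 for all genes. Higher by log2 1 or more were 17 members, against 8.95% of all genes, and lower were 0, against 1.2%. Of such genes 45.7% were higher and 6.15% lower, and among the 67 members meeting that condition 25.4% were higher. With signals as deposited, members exceeded the median of all genes by 0.07 only. The AP marker list had a median difference of 1.61 and the cell-cycle list of 1.08 in the same comparison, and their part in the result was not tested. Without cell 103L the median over members was 0.59 and 21 members were higher and 1 lower. Against the 23 E11 AP-like cells alone, 10 members were higher, against 7.19% of all genes, and 1 was lower, against 1.89%. Among detected genes, those whose higher mean reached the 20-copy level, the shares were 35.5% and 9.33%. Among the 68 detected members they were 14.7% and 1.47%.

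The 17 higher members comprised 10 of complex I, 4 of ATP synthase, 2 of complex II (Sdha and Sdhb) and 1 of complex III. Atp5k, which links ATP synthase dimers, had 13.22, 12.96 and 12.98 in the 3 E12 APs. All 29 E11 cells lay below, between 8.2 and 12.87. Atp5mpl had 12.04, 10.19 and 8.55 in E12 APs and a median of 7.95 in E11 cells, 5 of 29 of which were at the 20-copy level. Ndufa3 had 13.25, 10.36 and 12.6 and differed from E11 by 2.33. Uqcr11, a small subunit of complex III, differed by 1.77, and Ndufb2 by 1.66. None of the 9 detected complex IV genes passed log2 1. Sdhd was below the 20-copy level in all 3 E12 APs, at 9.63, 9.35 and 9.32, and 1.05 lower than in E11 AP-like cells.

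Neurosphere APs were compared with E12 APs to ask what removal from the tissue did to progenitors, and both sets of arrays had the same deposited scale. The neurosphere APs were E11 cells kept for 3 days, so the E12 APs are not matched to them in age. Age, time in culture, the medium with its growth factors and removal from the tissue cannot be told apart. The respiratory chain was slightly higher in culture. The median difference was 0.23 over members and -0.05 over all genes. Higher by log2 1 or more were 6 members, against 5.67% of all genes, and lower were 2, against 7.16%. Among genes whose higher mean reached the 20-copy level 24.1% were higher and 30.4% lower, and among the 68 such members 8.82% and 2.94%. All 6 higher members belong to complex I. Without the E12 cell 103L the median over members was 0.27, with 8 higher and 3 lower. The phe spike was at 9.57, 10.7 and 3.71 in the neurosphere APs and at 8.18, 10.62 and 9.86 in the E12 APs, so cell W6D alone was low.

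Ndufs5 was the one of these 8 members in which the cells of the 2 groups did not overlap. It had 12.61, 12.07 and 12.8 in neurosphere APs and 11.5, 10.99 and 10.55 in E12 APs, a difference of 1.47. Ndufs1 had 10.4, 10.23 and 10.14 in neurosphere APs and 10.93, 8.23 and 5.44 in E12 APs, so the difference of 2.06 came from 2 low E12 cells. Ndufb6, Ndufa8, Ndufa5 and Ndufa10 differed by 1.72, 1.46, 1.41 and 1.40, each with 1 of the 3 E12 APs under the 20-copy level. For Ndufb6, Ndufa8 and Ndufa5 that cell was the Eomes-positive 103L, and without it they differed by 0.27, 0.14 and 0.47. Of the 6 higher members only Ndufs5, and of the 2 lower members 0, stayed past log2 1 whichever 1 cell was left out. Neither this count nor that of members without overlap has a share over all genes beside it. Ndufs7 was lower by 3.23. Its neurosphere values were 0.63, 9.96 and 10.05 and its E12 values 8.78, 9.46 and 12.09, so a single neurosphere cell near the array floor set most of the difference. Uqcr10 was lower by 1.01. Across complexes the per-cell medians were 11.6 to 12.15 for complex II in neurosphere APs against 10.87 to 11.64 in E12 APs, and 12.73 to 12.92 against 12.68 to 13.03 for complex IV.

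NICD/p18 APs were compared with E12 APs to ask what sustained Notch signaling with cell cycle arrest did to progenitors of the younger wall, and they share those E12 APs with the previous comparison. The NICD/p18 APs were also older, at E14, electroporated and chosen for EGFP, with no control plasmid group here, so these cannot be told apart from NICD and p18. Member genes were lower in the electroporated cells, by a median of 0.98 on the log2 scale, and the median over all genes fell by 0.15. Among genes whose higher mean reached the 20-copy level the medians were closer, at -1.0 for members and -0.81 for all genes. Lower by log2 1 or more were 34 members, against 10.5% of all genes, and higher was 1, Ndufs1, against 5.14%. Among the 2461 such genes, 46.2% were lower and 22.6% higher. Of the 68 members meeting this condition 50% were lower and 1.47% higher. The share of members that were lower was thus close to that of detected genes in general. In 8 of the 34 lower members no NICD/p18 cell overlapped an E12 cell. The share of all genes without overlap is not given, so this count describes those 8 members only.

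The complexes differed in this comparison. Lower were 6 of 8 complex III genes, with a median of -1.46, 17 of 30 detected complex I genes, 8 of 17 ATP synthase genes and 2 of 3 detected complex II genes. Of 9 detected complex IV genes 1 was lower, Cox5a, and their median was -0.42. Whether the complexes differ beyond the spread between cells was not tested. Cox6b1 illustrates complex IV, with 13.75, 13.64, 13.55 and 13.39 in NICD/p18 APs and 13.46, 13.13 and 13.59 in E12 APs. Cox4i1 had 13.04, 13.31, 12.81 and 12.79 against 12.99, 12.68 and 12.81. Cox5a had 12.35, 13.74, 12.6 and 3.46 against 13.19, 13.48 and 13.44, so the low cell M6H set its difference of -2.83. Cox6c and Cox8a fell just short of the limit, at -0.97 and -0.99, with every NICD/p18 cell below every E12 AP.

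In complex I the differences ran both ways. Ndufv2, of the NADH-oxidizing module, had 4.94 in M5A, 11.2 in M5K, 7.95 in M6C and 0.31 in M6H, against 11.71, 12.24 and 9.72 in E12 APs, a difference of -5.12. All 3 probe sets of Ndufv2 were lower. Ndufv1, which binds NADH and the flavin, had 2.07, 11.74, 12.06 and 4.18 against 12.32, 11.71 and 11.45, a difference of -4.31. Cells M5K and M6C kept Ndufv1 at the level of E12 APs, and M5A and M6H did not. Ndufv3 followed the same cells, with 3.4, 12.27, 10.74 and 3.83 against 13.11, 11.71 and 9.91. Ndufs3, of the ubiquinone-reducing module, had 8.86, 11.07, 1.12 and 6.02 against 11.9, 9.21 and 11.84, a difference of -4.21. Ndufs1, also of the NADH-oxidizing module, ran the other way. It had 10.69, 11.21, 11.25 and 10.55 in NICD/p18 APs and was higher by 2.72, again because of 2 low E12 cells.

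Complex III had the lowest median of the complexes. Uqcr11 had 0.71, 9.38, 11.83 and 10.06 against 12.68, 12.3 and 11.73, a difference of -4.24, or -1.81 without cell M5A. Uqcr10 had 10.14, 11.15, 6.16 and 7.14, all below the lowest E12 value of 11.28, and differed by -2.95. The core subunit Uqcrc1 was lower by 2.49, Uqcrc2 by 1.52, the Rieske protein Uqcrfs1 by 1.40 and Uqcrb by 1.01. Without cell M6H the differences of Uqcrc2 and Uqcrfs1 were -0.58 and -0.03, and without M5K that of Uqcrb was -0.60. Of the 34 lower members of the chain 13 stayed past log2 1 whichever 1 cell was left out. Among them were Uqcr10, Uqcr11 and Uqcrc1, but no other complex III gene and no complex IV gene. The same share over all genes is not given, so this count describes the members only. In ATP synthase, the c subunit genes Atp5g1 and Atp5g2 were lower by 3.97 and 2.66 without overlap between groups, and by 1.43 and 1.35 without cell M5A. The catalytic Atp5b had 12.76, 11.85, 12.1 and 12.19 against 11.92, 12.98 and 12.53. For Atp5g1 another probe set differed in sign, as for Atp5c1. For Sdha the probe set used was higher by 0.32 and its other probe set lower by 6.43. Of the 35 members past log2 1, 20 had another detected probe set, and in 18 of them all had the same sign.

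**Figure D4:**
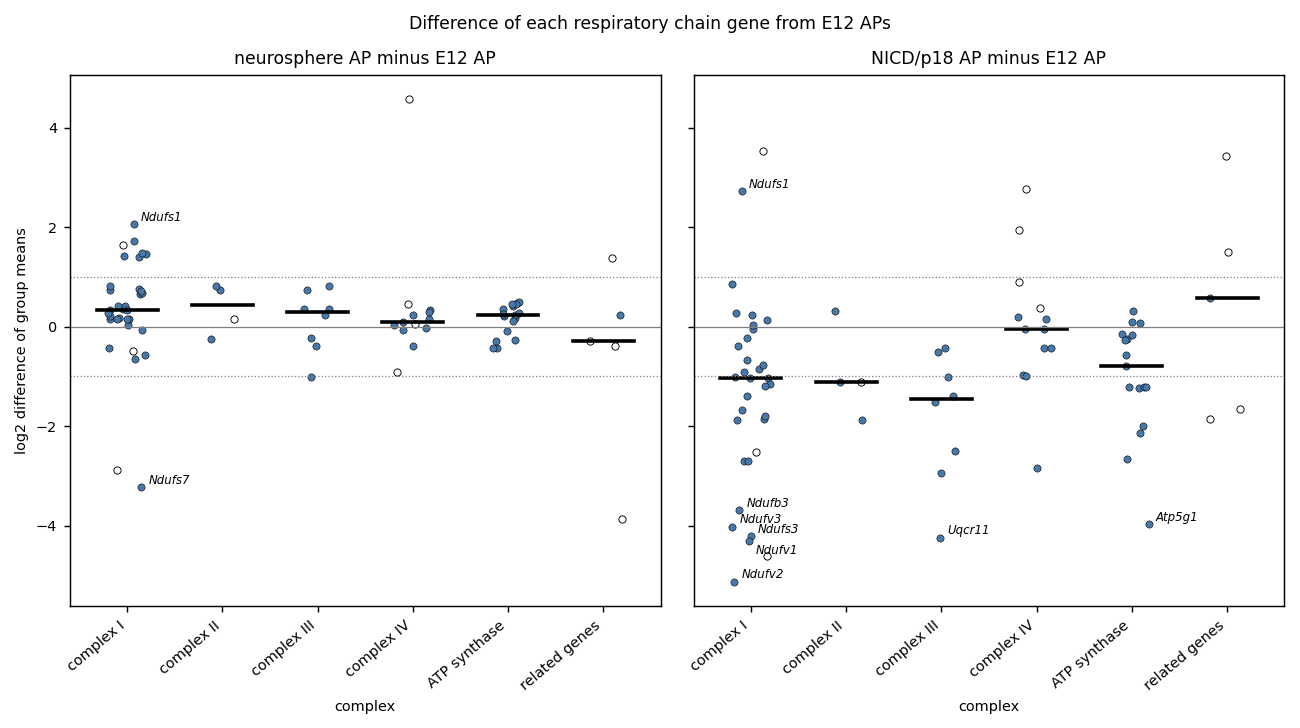
Log2 difference of each respiratory chain gene from E12 APs in neurosphere APs and in NICD/p18 APs, by complex. Each point is 1 gene, hollow where the higher group mean was under the 20-copy level, thick bars are medians over the genes of a complex, dotted lines mark 1 and -1, and both panels share the same 3 E12 APs. In NICD/p18 APs the median was -1.46 over complex III and -0.04 over the 13 complex IV genes. Over the 9 complex IV genes with filled points it was -0.42.

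Several other measures moved with this comparison, and their part in the result was not tested. Of 2 measured mesenchyme markers Pdgfrb reached the 20-copy level in some NICD/p18 APs and in no E12 AP, and Col1a2 in neither, with summed signals of 80.7 to 3260 and 28.9 to 51.3. The cell-cycle markers were at the 20-copy level in 8 of 8 genes in E12 APs and in 4 of 8 in any NICD/p18 AP. Of these, Ki67 took part in the choice of E12 APs and its absence was checked in NICD/p18 APs. Their summed signal was 36200 to 44000 in E12 APs and 2520 to 6880 in NICD/p18 APs, and Mki67, Top2a, Ccna2 and Mcm2 reached the level in none of the 4 cells. Neuronal markers were at the level for 10 of 15 genes in any NICD/p18 AP and 6 in any E12 AP, with summed signals of 3700 to 50000 and 3110 to 6490. Tubb3, a neuronal tubulin, had 11.76 in M5K and 11.43 in M6C and -0.18 in M5A and -0.38 in M6H, and the former pair of cells also had the higher member medians. The lys spike averaged 13.71 in NICD/p18 APs and 12.76 in E12 APs, and the 20-copy phe spike 11.41 and 9.553. Fewer transcripts of a gene and less RNA captured from a cell cannot be told apart in these arrays. Without cell M6H the median over members was -0.47, and 23 members were lower. Without the E12 cell 103L it was -0.88, with 31 members lower and 3 higher.

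Other gene sets are read against the same backgrounds, 10.5% of all genes and 46.2% of detected genes lower. The mitochondrial ribosome had a median difference of -1.99, with 26 of 76 genes lower and 0 higher, or 81.2% of its 32 detected genes lower. Mitochondrial import had -1.71, with 9 of 21 lower, or 69.2% of 13 detected. The tricarboxylic acid cycle had -0.85, with 5 of 13 lower, or 41.7% of 12 detected, which is under the background. Cycs, which encodes cytochrome c, was lower by 2.90, but without cell M6H it differed by -0.31. Glycolysis had a median of 0.28, or 0.02 over its 9 detected genes, with 0 of 15 lower and Aldoc higher by 1.23. The cytosolic ribosome had -0.33, with 5 of 44 lower, or 13.9% of its 36 detected genes. Among the regulators Yy1 was lower by 3.88 and Gabpa differed by -0.41.

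Set against neurosphere APs, from arrays of the same deposited scale, NICD/p18 APs showed a like set of values. The same 4 NICD/p18 cells enter both comparisons, so the second adds no independent cells on that side. The median difference over members was -1.12 and over all genes -0.12. Lower by log2 1 or more were 36 members, against 9.32% of all genes, and higher were 0, against 5.06%. Among genes whose higher mean reached the 20-copy level 43.4% were lower, and among the 67 such members 53.7%. Lower were 7 of 8 complex III genes and 2 of 9 detected complex IV genes, Cox5a by 3.06 and Cox8a by 1.28. Ndufv2 was lower by 5.41, Ndufs3 by 4.93, Uqcr11 by 4.60, Atp5g1 by 4.39 and Ndufb3 by 4.35.

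**Figure D5:**
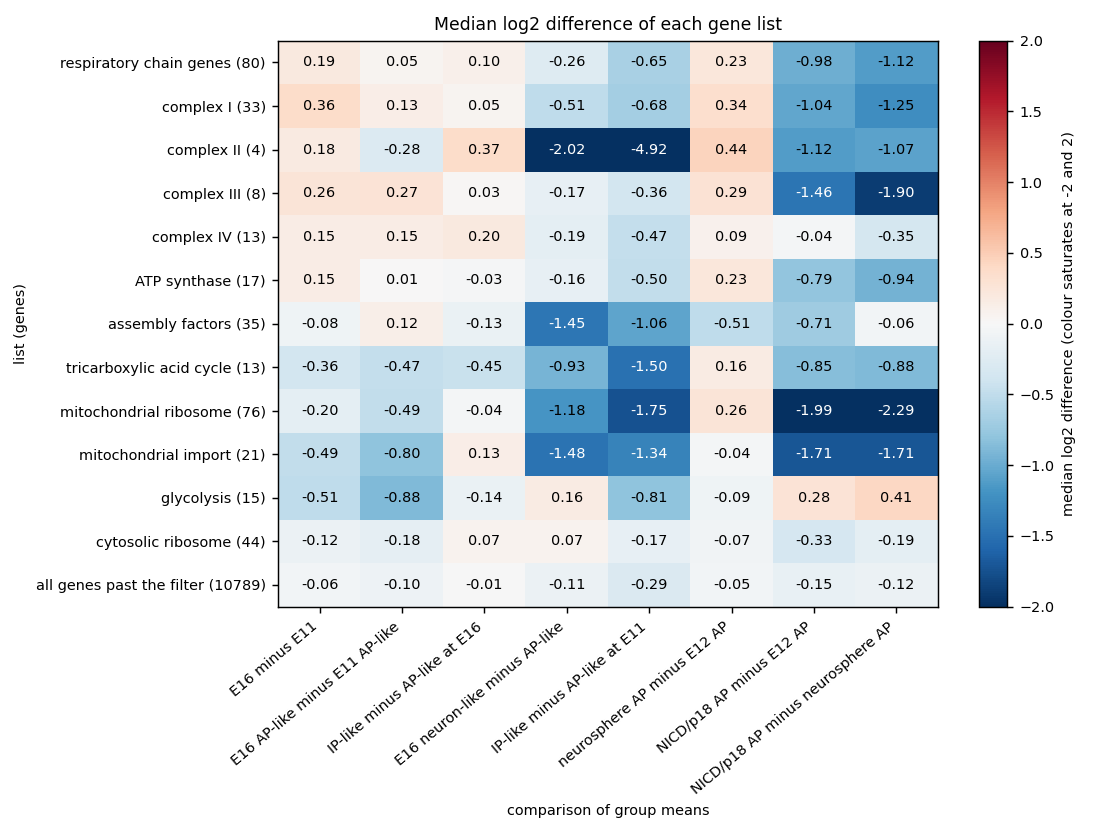
Median log2 difference of each gene list in each comparison of group means. Rows are lists with their number of genes, columns are comparisons, and color saturates at -2 and 2. In NICD/p18 minus E12 APs the respiratory chain is at -0.98, the mitochondrial ribosome at -1.99 and glycolysis at 0.28. Over detected genes only, which are not drawn, these medians were -1.0, -2.66 and 0.02.

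Comparing IP-like with AP-like cells asked whether the step from apical to basal progenitor came with a different respiratory gene set. At E16 it did so little. The median difference between the 8 IP-like and 17 AP-like cells was 0.10 over members and -0.01 over all genes. These IP-like cells also carried AP markers, so the classes were not sharply apart. Higher were 5 members, against 3.42% of all genes, and lower were 4, against 2.77%. Among genes whose higher mean reached the 20-copy level 22.6% were higher and 18.3% lower, and among the 66 such members 7.58% and 6.06%. Ndufs8 was higher by 1.49, Sdha by 1.42, Ndufb2 by 1.35, Ndufs3 by 1.08 and Ndufb7 by 1.03. Ndufc1 was lower by 1.79, Ndufv1 by 1.70, Ndufb10 by 1.58 and Ndufv3 by 1.46, and the ranges of the classes overlapped for all 9.

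At E11 only 2 IP-like cells were available, and they differed from each other. Cell 41G had 44 members at the 20-copy level and 42M had 60, against 55 to 69 in AP-like cells. Both cells also had fewer genes of any kind at the level, 2594 and 2689, against 2710 to 2856. The median difference from AP-like cells was -0.65 over members and -0.29 over all genes, with 24 members lower, against 4.92% of all genes, and 3 higher, against 8.43%. Of detected genes 23.6% were lower and 40.4% higher, and of the 68 detected members 35.3% and 4.41%. Without 41G the median was -0.18 and 13 members were lower. Uqcr11 was low in both cells, at 4.98 and 0.46, while AP-like cells ranged from 8.68 to 12.33. Ndufb5 had 0.71 and 8.8, and Ndufa8 had 1.63 and 5.17. Sdhb had 1.68 in 41G and 11.48 in 42M, so the difference of -5.12 rested on the first. Sdhaf3, an assembly factor of complex II, was higher by 4.48 but reached the level in 1 of the 2 cells.

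The 3 neuron-like E16 cells and the 4 unnamed E11 cells, which carried markers of both IPs and neurons, were set against the AP-like cells of their stage, in comparisons added after the cells were clustered. In neuron-like cells 17 members were lower by log2 1 or more, against 5.13% of all genes, and 6 were higher, against 7.74%. Among genes whose higher mean reached the 20-copy level 27.9% were lower and 42.1% higher, and among the 65 such members 26.2% and 9.23%. Ndufa1, a small membrane-arm subunit of complex I, was at the 20-copy level in 0 of 3 neuron-like and 16 of 17 AP-like cells and differed by -4.45. Ndufa12 was at it in 1 of 3 and 17 of 17 cells and differed by -4.61. Sdhaf4, an assembly factor of complex II, was at it in 3 of 3 and 7 of 17 cells and differed by 4.85.

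In the unnamed E11 cells 11 members were lower, against 6.63% of all genes, and 4 were higher, against 4.9%. Of detected genes 37.4% were lower and 27.7% higher, and of the 69 detected members 15.9% and 5.8%. All 4 subunit genes of complex II were among the lower ones, with a median difference of -2.91. Sdhd had 1.26, 1.36, 11.04 and 8.85 in the 4 cells and differed by -4.86. Sdhb had 11.25, 10.84, 0.7 and 11.17 and differed by -3.21, and Sdhc had 11.86, 3.05, 10.27 and 11.14 and differed by -2.62. Sdha had 3.73, 10.08, 7.31 and 9.9 and differed by -2.17. The low cell was thus a different one for Sdhb and for Sdhc. None of the 9 detected complex IV genes passed log2 1 in these cells.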

How the data were processed

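Single-cell cDNA was amplified by the authors with spiked RNAs of known copy number (1000 for lys, 100 for dap, 20 for phe and 5 for thr in each cell) and hybridized to Affymetrix mouse genome arrays. The deposited values are MAS5 intensity values on a linear scale, per the submitters' processing notes. The number of arrays limits the precision.

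Intensities were quantile normalized over all 68 arrays and log2 transformed. A probe set passed when it reached 842.4, the median signal of the 20-copy phe spike, in at least 1 cell, which left 10789 genes. Each gene was represented by its passing probe set of highest mean, and 9 probe sets shared by several genes were not named singly. Of the probe sets 34958 had 1 symbol, 932 several and 9211 none in the platform table. No pair of arrays held identical values. Cells of each stage were clustered on 79 marker probe sets (correlation distance, complete linkage, 3 clusters); the rule that left the mixed E11 cluster unnamed was set after its markers were seen.

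Differences are group means of log2 signal subtracted. A member was counted when it differed by 1 or more and its higher mean reached the 20-copy signal. Genes named are those of largest difference in each direction (10 for E16 minus E11, 5 otherwise), tissue variants and catalytic subunits, with others chosen after their values were seen. The members and lists were chosen with earlier results of these data known, and comparisons of AP-like, neuron-like and unnamed cells and the background of detected genes were added after the data were seen. No test between groups was made, since no label ties cells to animals. Alternatives were other scalings (as deposited, common trimmed mean, lys spike), a floor at the 20-copy signal, no filter, the mean over probe sets, quantile normalization of the 58 arrays alone, keeping cell 31i, and leaving out single cells. The procedure was tested on simulated data. Python 3.11.15, numpy 2.4.6, pandas 2.3.3, scipy 1.17.1 and matplotlib 3.10.9 were used. The study's earlier E14 arrays were not analysed here.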

Additional observations from a re-analysis of the deposited data

Results flagged for a closer look

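Of 33 group values checked for a cell far from the others of its group, 3 stood apart, all in NICD/p18 APs. The limit used is passed by about 1 in 20 groups of normally spread values. Signals that drop to the array floor are not so spread, so the number that chance gives here is not known. Atp5g1, a gene for the c subunit of ATP synthase, was at 0.42 in cell M5A and at 9.68 to 11.35 in the other 3 cells. Atp5g2, another c subunit gene, was at 6.37 in the same cell and at 11.45 to 11.86 in the others. Uqcrfs1, the Rieske iron-sulfur protein of complex III, was at 5.94 in cell M6H and at 11.34 to 11.48 in the others.

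Ndufb7, an accessory subunit of complex I, moved in opposite directions between IP-like and AP-like cells at the 2 stages. It differed by -0.79 at E11, from 2 IP-like cells, and by 1.03 at E16, from 8. The gap of -1.82 between these differences was not tested. Ndufb7 was not alone in this. Ndufs8 differed by -1.93 at E11 and 1.49 at E16, and Sdha by -4.8 and 1.42. Ndufb2 differed by -2.34 and 1.35, and Ndufs3 by -3.67 and 1.08. The other detected probe set of Sdha was lower at both stages. Over all members the 2 E11 IP-like cells had a median difference of -0.65.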

How the results depend on the processing

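No paired analysis was possible because no label pairs cells across groups. Apart from the check for cells far from their group, no result comes from a test. Each result is a description of single cells, and low signals on these arrays vary by many log2 units. With signals below the 20-copy level set to it, E16 minus E11 had 1 member higher and 0 lower, E12 minus E11 had 6 higher, neurosphere minus E12 APs had 3 higher and 0 lower, and NICD/p18 minus E12 APs had a median of -0.43 with 22 lower and 0 higher. Under the same floor IP-like minus AP-like cells had a median of -0.39 and 0 higher at E11, and 0 higher and 0 lower at E16, where Ndufv1 turned to 0.17. Scaling shifted the median of all genes, for E12 minus E11 by 2.02 as deposited, 0.42 at a common trimmed mean and 0.75 on the lys spike, so members were taken relative to it. Their median was then 0.07 under each, with 1 lower under each and 11 higher under trimmed mean and lys scaling. For IP-like minus AP-like cells at E11 the medians were -0.10, -0.09 and -0.06, with 14 higher under each. Neurosphere minus E12 APs had 1 lower under trimmed mean and lys scaling, and NICD/p18 minus neurosphere APs 1 higher as deposited. The mean over all probe sets gave neurosphere minus E12 APs a median of 0.17, IP-like minus AP-like cells at E16 3 higher, and NICD/p18 minus neurosphere APs 0.03 for Atp5g1. Keeping cell 31i gave 0 lower for E16 minus E11. AP-like cells alone, chosen after the data were seen, gave 2 lower for E16 minus E11, and 10 higher and 1 lower for E12 minus E11. The cause of these shifts was not tested. Leaving out 1 cell at a time gave medians of 0.53 to 0.59, 18 to 22 higher and 1 to 2 lower for E12 minus E11. For neurosphere minus E12 APs it gave 0.18 to 0.27, 6 to 10 higher and 1 to 3 lower, the 10 without neurosphere cell W2O. For NICD/p18 minus E12 APs it gave -1.0 to -0.47, 23 to 36 lower and 1 to 3 higher, the -0.47 and 23 without M6H. For NICD/p18 minus neurosphere APs it gave -1.14 to -0.76, 29 to 41 lower and 0 to 1 higher. For IP-like minus AP-like cells at E11 it gave -0.82 to -0.18, 13 to 30 lower and 4 to 11 higher, the -0.18 without 41G. Of values for single genes 434 moved by less than the SD between cells, 17 by more, and 2 changed sign.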
